A study of Mus musculus with 8 samples.

Results

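The mitotic genes described here were 10 genes chosen by their symbols: Top2a, Mki67, Cdk1, Ccnb1, Ccna2, Aurkb, Plk1, Cdc20, Ube2c and Birc5. All 10 were found among the 27514 genes common to every count matrix of a single-cell RNA-seq study of mouse thymic epithelial cells (TEC). The study asked which transcriptional programs differ between the growing fetal thymus and the adult thymus, and the question here is whether mitotic transcripts differed across stages and lineages through the number of cycling cells or through the level in each such cell. All 8 libraries came from the thymus of WT mice of strain C57 B6 (CD45.2), sorted as live (DAPI-) EpCAM+ CD45- cells. The E13.5 TEC library held total TEC (E stands for embryonic day), without a further gate. The E15.5, E17.5, newborn (NB) and adult cTEC libraries were gated Ly51+ UEA-1-, which takes cortical TEC, and the adult mTEC libraries were gated Ly51- UEA-1+, which takes medullary TEC. Each stage before the adult had 1 library, and adult cTEC and adult mTEC had 2 libraries each. According to the methods, adult mice were 4 to 6 weeks old unless stated otherwise and newborn mice 0 to 2 days. The labels do not say how many animals were pooled, so the spread between adult libraries may be technical in part. A growth note in the labels names bone marrow suspensions, whereas tissue and gate are thymic. According to the methods, fetal thymi were dissociated with trypsin while newborn and adult thymi were digested with Liberase and enriched on Percoll, so for the step from fetal to newborn or adult thymi stage and preparation cannot be told apart. The fetal libraries shared one preparation, as did the newborn and adult ones, although the E13.5 library differed from the later ones in its gate.

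A cell that divides switches on a shared set of genes late in its cycle, and these transcripts are removed again after division, so a tissue's level of them depends on how many of its cells are near mitosis. Cyclin-dependent kinase 1 (Cdk1), activated by cyclin A2 (Ccna2) and cyclin B1 (Ccnb1), drives entry, and Polo-like kinase 1 (Plk1) acts beside it. The chromosomal passenger complex, with the kinase Aurora B (Aurkb) and survivin (Birc5), corrects attachments of chromosomes to the spindle, topoisomerase II alpha (Top2a) untangles sister DNA and Ki-67 (Mki67) coats the chromosomes. Exit follows when the anaphase-promoting complex, with its coactivator Cdc20 and the ubiquitin-conjugating enzyme Ube2c, marks cyclin B for destruction. In the thymus, cTEC support the early development and positive selection of T cells, mTEC display self antigens, and the epithelium expands in the fetus.

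Promoters of late cell-cycle genes are known to carry CCAAT boxes, bound by the factor NF-Y, and a downstream element with the letters TTTGAA (the cell cycle genes homology region), through which the MuvB complex acts. Promoter windows of 300 bases were held for 8 of the 10 mitotic genes (all but Aurkb and Ccna2) in the RefSeq table of build GRCm38.p6. TTTGAA, read on both strands, was present in 6 of these 8 windows and in 17.9% of 32851 promoter windows of the genome. CCAAT on either strand was present in 7 of 8 windows and in 37.4% of all windows, and both motifs stood together in 6 of 8 windows and in 7.0% of all. These matches are a description of letters, counted with overlaps allowed, and not evidence of binding. The 150 bases before the annotated start are shown for Cdk1, Cdc20, Top2a and Plk1, where the motifs lie close to the start, and for Birc5, which held neither in its window. Sequences run 5′ to 3′ on the strand of the gene and capitals mark either motif or its reverse complement.
Cdk1 promoter, chr10:69352913-69353062, minus strand: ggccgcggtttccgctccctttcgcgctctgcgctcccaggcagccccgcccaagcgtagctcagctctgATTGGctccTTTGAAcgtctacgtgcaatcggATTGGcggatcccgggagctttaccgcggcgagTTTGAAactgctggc
Cdc20 promoter, chr4:118437344-118437493, minus strand: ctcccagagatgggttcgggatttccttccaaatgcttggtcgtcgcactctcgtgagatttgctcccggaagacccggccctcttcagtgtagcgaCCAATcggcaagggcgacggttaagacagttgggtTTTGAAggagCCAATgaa
Top2a promoter, chr11:99024190-99024339, minus strand: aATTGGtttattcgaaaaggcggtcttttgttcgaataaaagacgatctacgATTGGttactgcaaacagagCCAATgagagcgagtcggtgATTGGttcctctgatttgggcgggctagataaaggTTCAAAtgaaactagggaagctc
Plk1 promoter, chr7:122159285-122159434, plus strand: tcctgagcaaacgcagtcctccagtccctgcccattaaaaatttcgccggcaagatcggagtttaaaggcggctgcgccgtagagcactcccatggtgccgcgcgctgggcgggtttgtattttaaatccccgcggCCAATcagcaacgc
Birc5 promoter, chr11:117849087-117849236, plus strand: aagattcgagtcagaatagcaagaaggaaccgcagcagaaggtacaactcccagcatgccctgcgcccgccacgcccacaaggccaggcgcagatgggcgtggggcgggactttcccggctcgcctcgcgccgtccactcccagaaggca
In the Cdk1 window TTTGAA began at 15 and at 71 bases before the start, with CCAAT boxes at 48 and 80 bases before it. Cdc20 had TTTGAA at 18 bases before the start between boxes at 53 and 8 bases, and Top2a had it at 23 bases before the start with boxes at 58, 78, 98 and 149 bases. The single box of Plk1 lay at 14 bases before the start, and its TTTGAA lay 31 bases into the transcript.

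The libraries held 511 to 9066 cell barcodes and 2257967 to 90103548 unique molecular identifiers (UMIs, the counted transcripts), with medians per cell from 3996 in adult cTEC 1 to 11386 in adult mTEC 2. Adult cTEC 1 stood apart as the smallest and shallowest library: 492 epithelial-like cells entered, of which 152 held under 3000 UMIs, against 9 of 1585 in adult mTEC 1. Any 2 libraries shared at most 61 barcodes. Data set 1 held E13.5, E15.5, NB and the first adult library of each lineage, and data set 2 held E17.5 and the second adult libraries. Markers of thymocytes, 11 genes in all, summed to 6.04 to 116 CPM (UMIs scaled to the same library total) and were highest in adult cTEC 2. Markers of myeloid cells, 8 genes, summed to 1.79 to 33.2 CPM in the fetal, NB and adult cTEC 2 libraries, to 327 CPM in adult cTEC 1 and to 460 and 591 CPM in adult mTEC. The 8 mesenchymal markers summed to 510 and 318 CPM in adult cTEC and to at most 103 CPM elsewhere. The 6 epithelial markers summed to 4158 to 18514 CPM and were all detected in every library.

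Across all epithelial-like cells, every one of the mitotic genes was highest in E13.5 TEC and second in E15.5 cTEC, and the 10 genes together summed to 2320, 1573, 526 and 516 CPM along the series from E13.5 to NB. In adult cTEC they summed to 130 and 289 CPM, and in adult mTEC to 305 and 387 CPM. In such sums over a library, fewer cells of a type and less RNA per cell cannot be told apart. Lengths were not used, so levels are compared for 1 gene across libraries and not between genes.

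**Figure D1:**
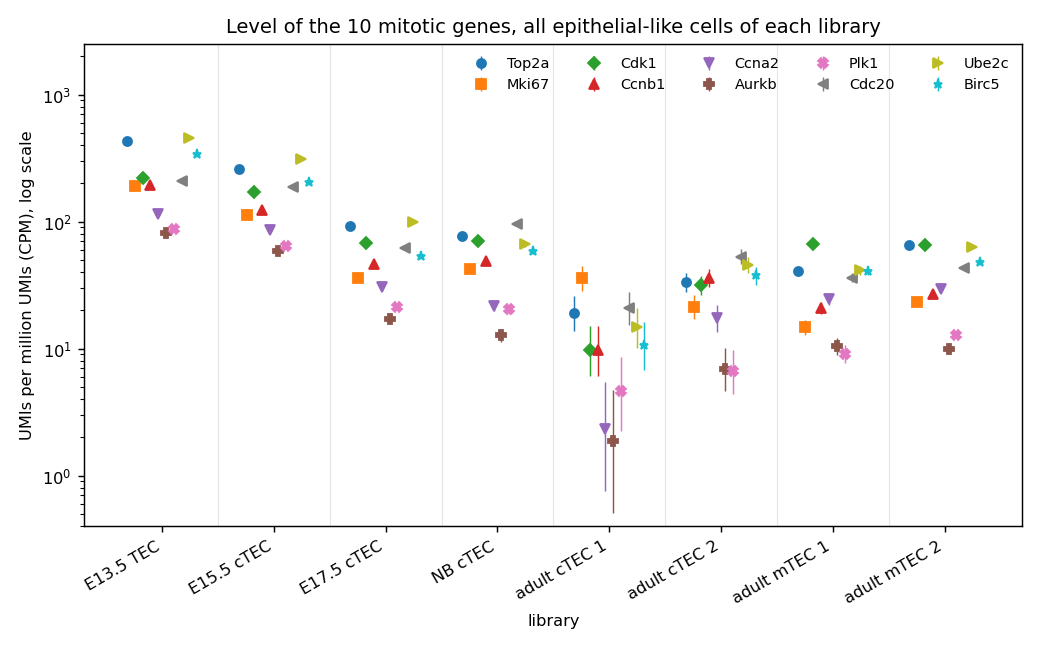
Level of the 10 mitotic genes in each of the 8 libraries, in CPM on a log axis, with 95% Poisson intervals that cover counting error only. Each marker is 1 gene, and every gene sits highest in E13.5 TEC, with Ube2c at 451 CPM and Aurkb at 82.0 CPM as the extremes there.

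Among the entry kinase and its cyclins, Cdk1 measured 220, 172, 67.3 and 70.9 CPM from E13.5 through E15.5 and E17.5 to NB, then 9.76 and 31.4 in the 2 adult cTEC libraries and 66.9 and 65.3 in adult mTEC. Ccnb1 measured 194, 124, 46.3 and 49.0 CPM from E13.5 to NB, then 9.76 and 35.9 in adult cTEC and 20.8 and 26.9 in adult mTEC. Ccna2 measured 115, 86.1, 30.5 and 21.7 CPM through NB, then 2.32 and 17.3 in adult cTEC and 24.4 and 29.5 in adult mTEC. The Cdk1 level of adult mTEC thus lay close to that of the E17.5 and NB cortical libraries, whereas both adult cTEC libraries lay below those. Plk1 measured 88.1, 63.8, 21.4 and 20.6 CPM over the same stages and lay at 4.65 and 6.68 in adult cTEC and 9.02 and 12.9 in adult mTEC.

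Of the chromosome and passenger proteins, Top2a measured 431, 257, 92.9 and 77.1 CPM through NB, then 19.1 and 33.2 in adult cTEC and 40.7 and 64.8 in adult mTEC. Birc5 measured 340, 204, 53.9 and 58.7 CPM through NB, then 10.7 and 37.6 in adult cTEC and 40.9 and 47.7 in adult mTEC. Aurkb measured 82.0, 59.1, 17.2 and 12.7 CPM through NB, then 1.86 and 6.93 in adult cTEC and 10.4 and 9.91 in adult mTEC. Mki67, the textbook marker of cycling cells, had another order at the low end: 189, 112, 35.9 and 42.5 CPM through NB, then 35.8 and 21.3 in adult cTEC and 14.7 and 23.4 in adult mTEC.

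Of the exit factors, Ube2c measured 451, 308, 98.9 and 66.7 CPM from E13.5 to NB, then 14.9 and 45.8 in adult cTEC and 41.2 and 63.4 in adult mTEC. Cdc20 measured 210, 187, 61.7 and 96.2 CPM through NB, then 20.9 and 53.0 in adult cTEC and 36.2 and 43.2 in adult mTEC. NB cTEC held more Cdc20 than E17.5 cTEC and less Ube2c. Of the 10 genes, 5 were higher in NB than in E17.5 cTEC and 5 were lower, with 1 library each and in different data sets, so these neighbours are not ordered here. The 2 adult cTEC libraries differed from each other by more than the adult mTEC libraries did for most genes, and the adult lineages overlapped for Mki67, Ccnb1, Cdc20 and Ube2c. For the other 6 genes both adult cTEC values lay below both adult mTEC values, as they did for 37.3% of the 15626 genes compared between the adult lineages. The opposite order was found for 0 of the 10 genes and for 30.4% of all.

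The stage slope was tested over the 6 libraries of the cortical line (E13.5 TEC and the cTEC libraries) on summed counts, as the log2 change per step between the 5 stages. By edgeR's quasi-likelihood test with Benjamini-Hochberg adjustment over 14341 genes, 7 of the 10 mitotic genes fell with stage and 0 rose, where 2.80% of all tested genes fell. The slopes of these were -1.06 for Aurkb (SE 0.176, adjusted p = 0.0236), -1.06 for Ube2c (SE 0.169, adjusted p = 0.0215), -0.99 for Ccna2 (SE 0.220, adjusted p = 0.0473) and -0.98 for Top2a (SE 0.132, adjusted p = 0.0133). Birc5 had a slope of -0.95 (SE 0.199, edgeR adjusted p = 0.0414), Plk1 of -0.91 (SE 0.138, adjusted p = 0.0194) and Mki67 of -0.58 (SE 0.0797, adjusted p = 0.0143). Not past the threshold were Cdk1 at -0.83 (SE 0.203, edgeR adjusted p = 0.0584), Ccnb1 at -0.78 (SE 0.185, adjusted p = 0.0548) and Cdc20 at -0.58 (SE 0.187, adjusted p = 0.110). The median slope was -0.93, against 0 over all genes tested, of which 4.78% rose. The count rested on adult cTEC 1: without that library 0 of 10 genes passed, with all 10 slopes below 0 and a median of -0.68, and it was 2 without E15.5 and 3 without E17.5. DESeq2 called all 10, but the 2.80% of all genes above belongs to the edgeR fit and is no background for this count. In data set 1 alone the median of the 10 genes, on log2(CPM + 10) in cells thinned to 3000 UMIs, fell by 1.61 on the log2 scale from NB to adult cTEC 1, and in data set 2 alone it fell by 0.87 from E17.5 to adult cTEC 2.

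Other genes of division, from lists whose members overlap in part, gave the following counts in the same fit. Of 24 mitotic reference genes, such as spindle kinesins and centromere proteins, 18 fell with stage and 0 rose, with Bub1b at -1.09 and Cdca3 at -0.92. Of 43 S phase genes, which act in DNA replication and repair, 24 fell and 0 rose, led by Exo1 at -1.16 and Dtl at -1.10. In the passenger complex and spindle checkpoint list 8 of 12 fell, again led by Bub1b and followed by Bub1 at -0.92. Of 47 G2 and M phase genes other than the 10, 24 fell, with Psrc1 at -1.02 and Cdca3 the largest. Of 11 mitotic entry switches 6 fell, among them Bora, the activator of the Plk1-Aurora A step, at -0.96, and the phosphatase Cdc25c at -0.80. In the machinery of mitotic exit and of transcription, 2 of 16 subunits and coactivators of the anaphase-promoting complex fell, Anapc1 at -0.38 and Anapc5 at -0.36, and 3 of 17 transcriptional regulators of mitotic genes fell, with E2f7 at -0.72 and E2f1 at -0.71. In the same fit 5 of 11 thymocyte markers and 3 of 6 myeloid markers tested were higher with stage and 3 of 5 erythroid markers were lower. Their part in the slopes was not tested. A fit without cells with at least 3 markers of one other cell type called 7 of the 10 mitotic genes lower. The share of all genes called in that fit is not given here.

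To count cells near mitosis without using the 10 genes, each cell was thinned to 3000 UMIs and called reference-positive when at least 3 of the 24 mitotic reference genes were detected. In E13.5 TEC 58.8% of 1815 cells were reference-positive (exact 95% interval 56.5 to 61.1%), and the share was 24.8% of 3486 cells in E15.5 cTEC (23.3 to 26.2%). It was 9.90% of 8214 cells in E17.5 cTEC (9.26 to 10.6%) and 10.5% of 3331 cells in NB cTEC (9.51 to 11.6%). In adult cTEC it was 1.76% of 340 cells (0.650 to 3.80%) and 5.70% of 509 cells (3.85 to 8.08%), and in adult mTEC 7.80% of 1576 cells (6.53 to 9.24%) and 8.50% of 5403 cells (7.77 to 9.27%). E17.5 and NB overlapped in their intervals, as did the 2 adult mTEC libraries with each other and with adult cTEC 2. These intervals cover counting error only. The E17.5 share depended on a cluster led by haemoglobin genes, which was kept and held 2017 of the E17.5 cells. Without it and the cluster led by Hhex and Nkx2-1, the share was 12.2% in E17.5 cTEC and 10.5% in NB. Without thinning the shares were 71.0, 31.3, 23.4, 14.2, 2.03, 7.85, 15.3 and 26.9% in the same order, and the gain was largest in the deep libraries of data set 2, E17.5 cTEC and adult mTEC 2.

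**Figure D2:**
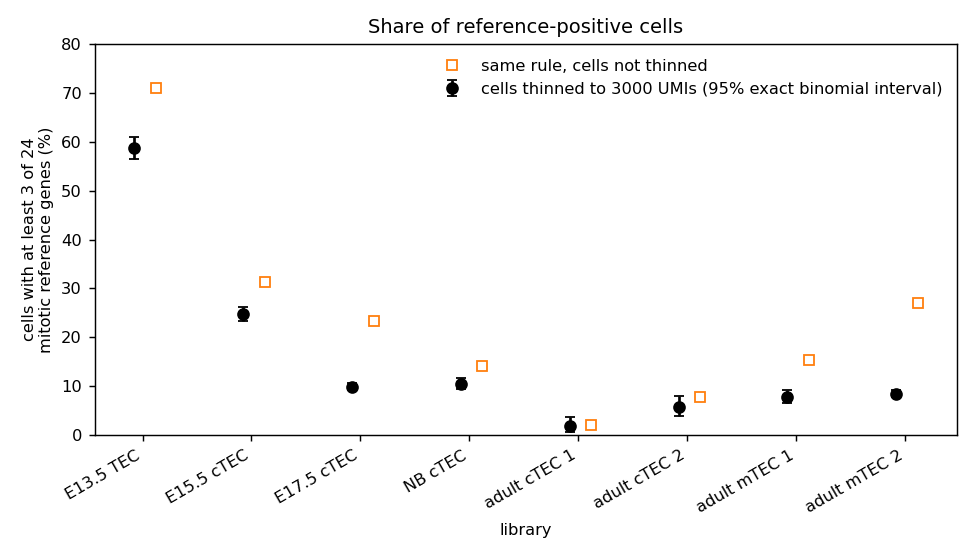
Share of reference-positive cells in each of the 8 libraries, as a percentage of cells. Filled points are cells thinned to 3000 UMIs with exact binomial 95% intervals and open squares are all cells, shallow ones included, without thinning; the thinned share runs from 58.8% in E13.5 TEC to 1.76% in adult cTEC 1.

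The cut divides a range and not a type. Cells with exactly 2 reference genes, just outside it, numbered 183 in E13.5, 166 in E15.5, 466 in E17.5 and 103 in NB cTEC, 6 and 12 in adult cTEC, and 55 and 375 in adult mTEC. Cells with exactly 3, just inside it, numbered 161, 89, 115 and 49 through NB, 0 and 3 in adult cTEC, and 38 and 161 in adult mTEC. Reference-positive cells of adult mTEC held a median of 4 reference genes, and those of the other libraries 6.5 to 9, so the adult mTEC cells lay nearer the cut. They were also deeper before thinning than reference-negative cells in every library, for example a median of 18223 against 11202 UMIs in adult mTEC 2 and 8353 against 6240.5 in E13.5 TEC. The limit of 5000 detected genes removed 338 cells of adult mTEC 2, 34 of adult mTEC 1 and 100 of E17.5 cTEC. Whether these are dividing cells or doublets was not tested, and no doublet caller was run.

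The number of mitotic genes per cell differed along the stages as well. A UMI of at least 1 of the 10 genes was found in 79.9, 44.8, 36.6 and 23.99% of thinned cells from E13.5 to NB, in 15.9 and 17.3% in adult cTEC and in 18.5 and 38.1% in adult mTEC. Cells with at least 5 of the 10 made up 31.6, 17.4, 5.69 and 5.34% from E13.5 to NB, 0.882 and 1.57% in adult cTEC and 1.90 and 2.499% in adult mTEC. Adult mTEC 2 was close to E17.5 cTEC in cells with any mitotic gene, and 66.1 and 61.4% of those cells held 1 gene alone. This percentage was 19.4% at E13.5, 36.7% at E15.5 and 56.8% in NB, 87.0 and 68.2% in adult cTEC and 47.3% in adult mTEC 1. Cells with 8 to 10 of the genes made up 7.71, 7.52, 1.31 and 2.13% through NB and at most 0.589% in any adult library. A cell with Plk1 at E15.5 also held Birc5 in 87.8% of cases and Ube2c in 81.8%, beside 22.6 and 20.1% of all thinned cells there. In adult mTEC 2 a cell with Plk1 held them in 33.3 and 38.9% of cases, beside 8.50 and 9.18% of all thinned cells.

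**Figure D3:**
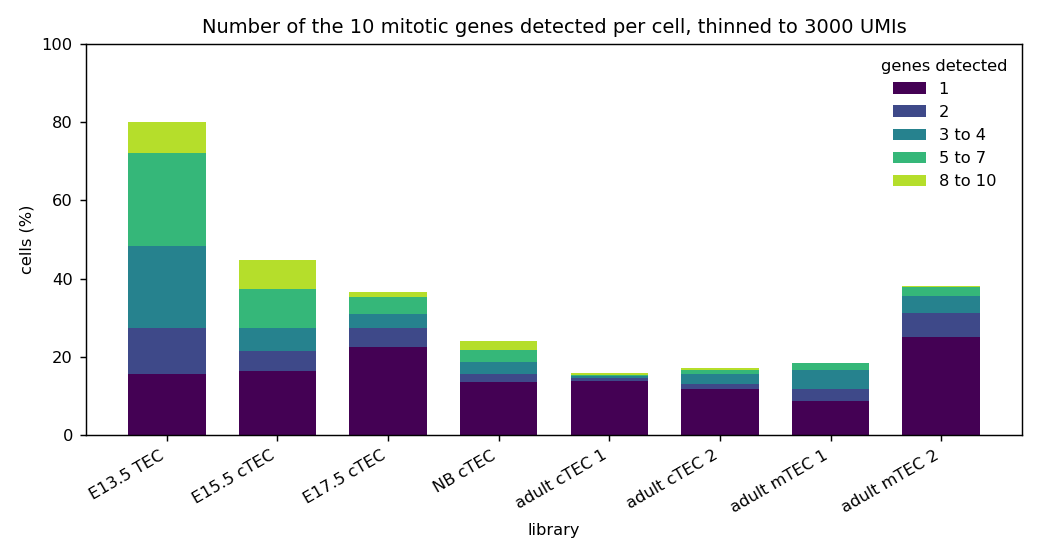
Cells of each library, in percent, by how many of the 10 mitotic genes were detected after thinning to 3000 UMIs; the part up to 100% held none. The stacks reach 79.9% in E13.5 TEC and 15.9% in adult cTEC 1, and the part with 5 or more genes is 31.6% and 0.882% there.

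For single genes, share and level were also taken apart. Top2a was detected in 47.7, 24.2, 12.9 and 8.23% of thinned cells from E13.5 to NB, 2.35 and 4.52% in adult cTEC and 6.03 and 10.6% in adult mTEC. The UMIs of Top2a per cell with any were 2.36, 2.501, 1.79 and 2.22 from E13.5 to NB, 1.38 and 1.30 in adult cTEC and 1.38 and 1.32 in adult mTEC. Cdc20 was detected in 30.7, 18.0, 9.18 and 9.43% of cells through NB, 2.65 and 4.13% in adult cTEC and 5.20 and 7.07% in adult mTEC. Its UMIs per such cell were 1.83, 2.49, 1.67 and 2.84 through NB, 1.56 and 2.76 in adult cTEC and 1.55 and 1.38 in adult mTEC, so the value at E15.5, in NB and in adult cTEC 2 was above that at E13.5. Over the 10 genes the median share of thinned cells with a UMI went from 32.1% at E13.5 to 7.14% in NB, and to 1.76 and 4.03% in adult cTEC. The median of UMIs per such cell was 1.65, 2.04, 1.504 and 2.003 through NB, 1.31 and 1.42 in adult cTEC and 1.34 and 1.26 in adult mTEC, where 1 is the least possible.

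Tuft-like mTEC, a differentiated chemosensory type, were set beside these shares. With at least 6 of 12 tuft markers there were 128 such cells in adult mTEC 2, with a median of 7776 UMIs, and 0 of them were reference-positive, with an exact upper bound of 2.84%. Still, 30.5% (22.6 to 39.2%) held a UMI of at least 1 of the 10 mitotic genes, against 38.3% of the other cells, and single genes reached 8.59% (Cdk1). In adult mTEC 1 there were 14 such cells with a median of 6568 UMIs, and 0 held any of the 10 genes, against 18.7% of the other cells. A looser call of at least 3 tuft markers took 635 cells in adult mTEC 2, with a median of 14159 UMIs, of which 10.4% were reference-positive. In adult mTEC 2 the interval of the stricter call included the share of other cells for any mitotic gene. The stricter call was chosen after its values were seen, and the part of free RNA in these shares was not tested.

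Within reference-positive cells the mitotic genes were not highest at E13.5: all 10 were higher at E15.5. Ube2c in these cells measured 665, 995, 673 and 523 CPM from E13.5 to NB, 438 and 569 in adult cTEC and 263 and 343 in adult mTEC. Top2a measured 594, 767, 557 and 529 CPM through NB, 298 and 308 in adult cTEC and 191 and 244 in adult mTEC. Cdc20 took another course, with 307, 596, 413 and 729 CPM through NB, 577 and 676 in adult cTEC and 237 and 226 in adult mTEC. Cdc20 per reference-positive cell was thus higher in NB and both adult cTEC libraries than at E13.5, and lowest in adult mTEC, while Top2a in both adult lineages was below every earlier stage.

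Among the entry kinase and cyclins in reference-positive cells, Ccna2 was highest at E15.5, whereas the counting intervals of Cdk1 at E15.5 and in NB overlapped, as did those of Ccnb1 at E15.5, in NB and in adult cTEC 2. Cdk1 measured 305, 527, 419 and 509 CPM from E13.5 to NB, 318 and 342 in adult cTEC and 287 and 249.3 in adult mTEC. Ccnb1 measured 286, 405, 317 and 392 CPM through NB, 278 and 409 in adult cTEC and 133 and 139 in adult mTEC. Ccna2 measured 160, 271, 199 and 168 CPM through NB, 79.6 and 194 in adult cTEC and 145 and 148 in adult mTEC, with 4 UMIs behind the lowest of these values (interval 21.7 to 204 CPM). The adult cTEC 1 values rest on 6 cells and 145 UMIs of the 10 genes. Of these 6 cells 1 carried 336 UMIs of the myeloid markers, 0 of Epcam and 39 of the 145 UMIs; without it Mki67 in these cells was 183 CPM in place of 278, and Cdc20 was 678 CPM in place of 577.

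Plk1 measured 130, 210, 148 and 165 CPM in reference-positive cells from E13.5 to NB, 179 and 87.1 in adult cTEC and 59.4 and 66.1 in adult mTEC. Aurkb measured 116, 183, 108 and 88.8 CPM through NB, 59.7 and 73.7 in adult cTEC and 52.4 and 44.2 in adult mTEC. Birc5 measured 472, 635, 330 and 441 CPM through NB, 378 and 429 in adult cTEC and 237 and 216 in adult mTEC. Mki67 measured 257, 309, 179 and 236 CPM through NB, 278 and 161 in adult cTEC and 67.9 and 98.4 in adult mTEC. In reference-positive cells both adult mTEC values lay below both adult cTEC values for 9 of the 10 genes, all but Ccna2, and for 29.1% of the 8480 genes compared in these cells. The opposite order was found for 0 of the 10 and for 27.2% of all. In thinned cells both adult mTEC values lay below both adult cTEC values for 6 of the 10, namely Cdk1, Ccnb1, Plk1, Birc5, Mki67 and Cdc20. A share over all genes was not computed for thinned cells. There Top2a and Ccna2 had the opposite order. Top2a was 167 and 161 CPM in adult cTEC against 187 and 208 in adult mTEC, and Ccna2 was 111 and 69.0 against 141 and 127. Aurkb in adult cTEC 1 rests on 3 UMIs and had 0 in thinned cells. Without cells carrying markers of another type, unthinned Aurkb was 52.2 CPM in adult cTEC 1 and 53.3 in adult mTEC 1, so its values overlapped.

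**Figure D4:**
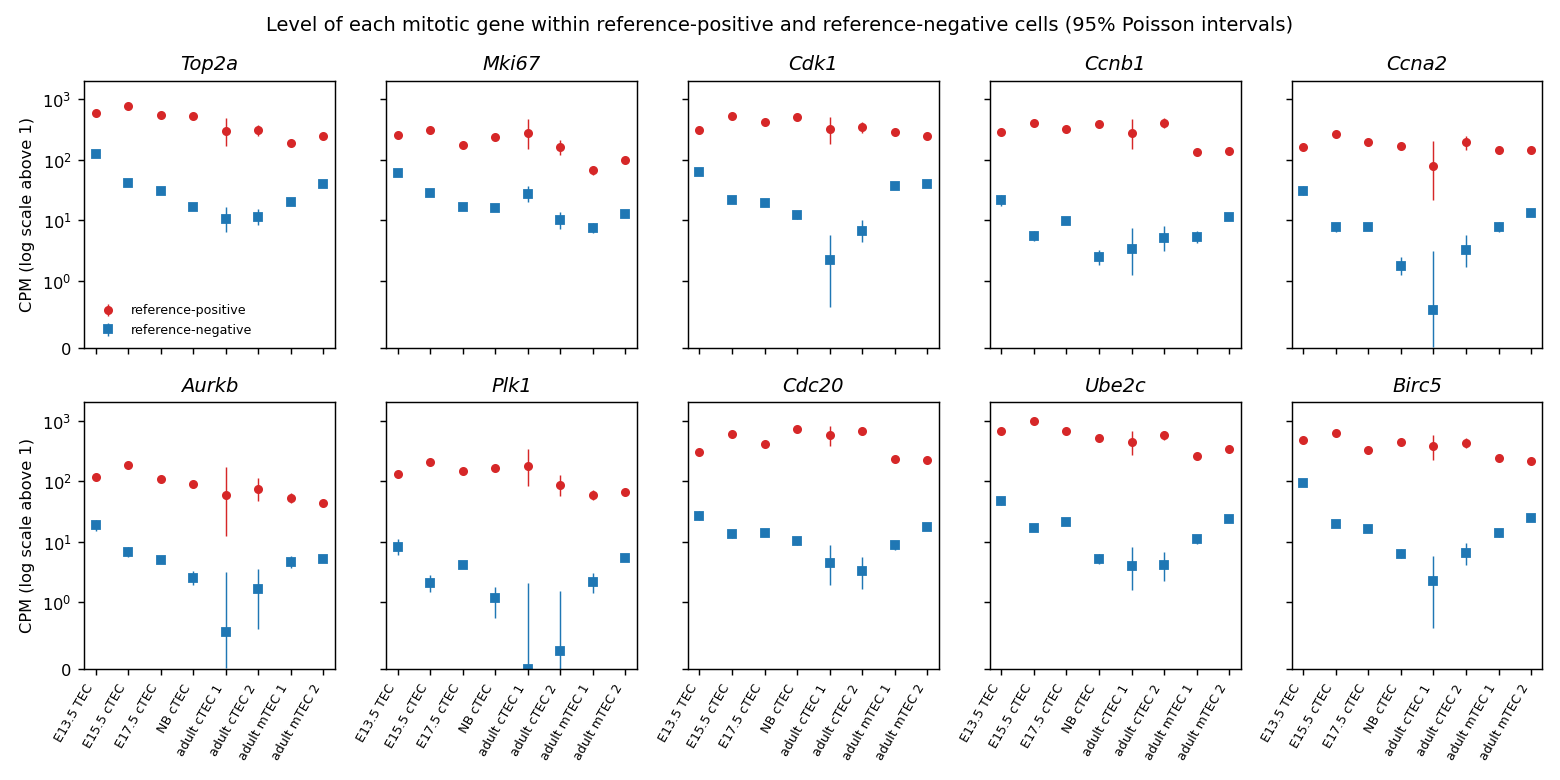
Level of each mitotic gene, in CPM on a log axis that is linear from 0 to 1, within reference-positive cells (red circles) and reference-negative cells (blue squares) of the 8 libraries, with Poisson 95% intervals for counting error. The red circles are lower in both adult mTEC libraries than in both adult cTEC libraries for 9 of the 10 genes, all but Ccna2. This order was found for 29.1% of the 8480 genes compared. In thinned cells, not drawn here, 6 of the 10 kept it, while Top2a and Ccna2 had the opposite order. A share over all genes was not computed for thinned cells. The blue squares are highest at E13.5 and sit higher in adult mTEC than in adult cTEC for most genes.

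The stage slope fitted on reference-positive cells alone gave 0 of 10 mitotic genes past the threshold by edgeR's quasi-likelihood test, where 0.758% of 12011 tested genes fell and 2.29% rose. The count at an unadjusted p under 0.05 was 1 of 10 genes. This was Top2a, at -0.33 per stage (SE 0.132, edgeR adjusted p = 0.247), with a 95% interval of -0.62 to -0.04. Aurkb at -0.31 had an interval of -0.63 to 0.01 and Ube2c at -0.27 one of -0.54 to 0.00. Cdc20 was the gene with a slope above 0, at 0.18 (interval -0.11 to 0.47, edgeR adjusted p = 0.545). The median slope was -0.11, against -0.05 over all genes tested and -0.93 for the same genes in all cells. No mitotic gene passed under any of the other settings tried, DESeq2 included. The fit was able to make calls: 366 genes passed the threshold and 1910 had an unadjusted p under 0.05. Slopes smaller than the intervals above cannot be told from 0 with these libraries. None of the reference, S phase, checkpoint, entry switch, regulator or anaphase-promoting complex genes passed in this fit either; the reference genes chose the cells, and their count is a description. In this fit 1 of 10 thymocyte markers tested rose, Cd4, and 1 mesenchymal gene rose, Dcn. Of 3 parathyroid markers tested 2 fell, Chga at -5.14 and Pth at -3.97. The erythroid gene Hba-a2 fell at -4.80, the endothelial gene Egfl7 at -0.96 and the epithelial gene Cldn7 at -3.13. The part of these markers in the slopes was not tested.

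**Figure D5:**
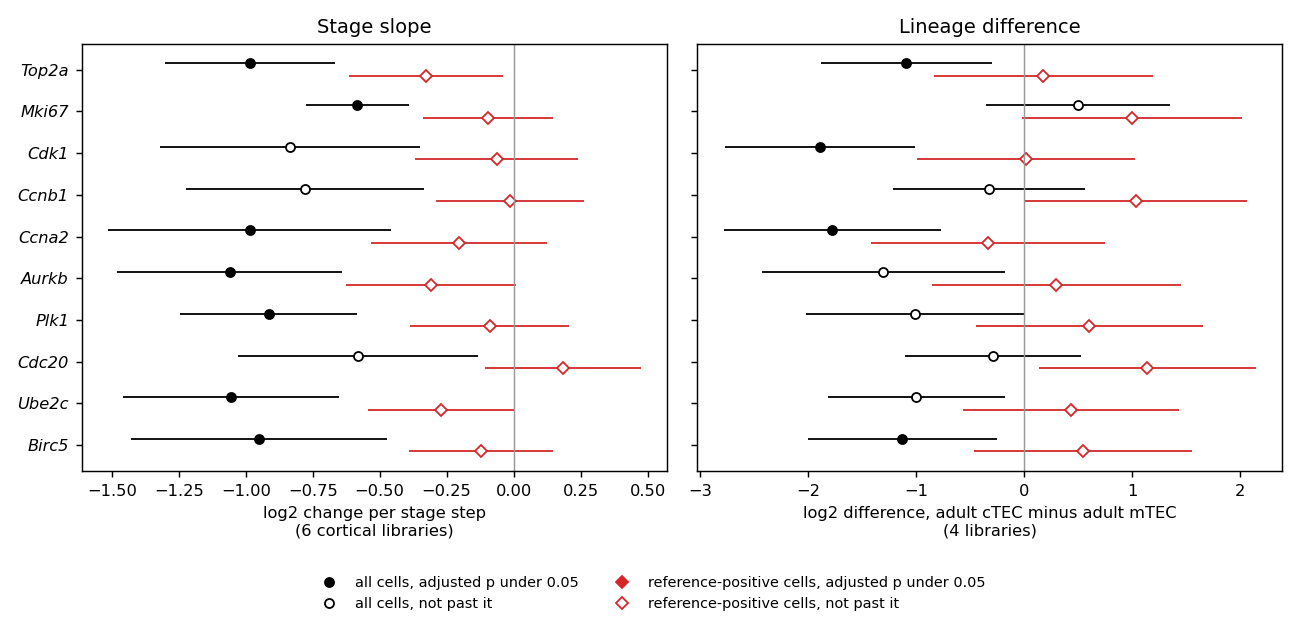
Fitted log2 change of each mitotic gene per stage step over 6 cortical libraries (left) and between adult cTEC and adult mTEC over 4 libraries (right), with 95% intervals from the edgeR fit. Black circles are all cells and red diamonds are reference-positive cells, filled where the adjusted p was under 0.05: 7 genes on the left and 4 on the right, in all cells alone.

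The change between single libraries was also split into the 2 quantities, on log2(CPM + 10) in thinned cells and with no test. From E13.5 to the mean of adult cTEC, the median observed change of the 10 genes was -2.79. Setting the share of reference-positive cells to its adult value and keeping both levels gave -1.59, and setting the levels to their adult values and keeping the share gave -0.52. The 2 parts do not add up to the whole, since each is computed with the other held at E13.5. The share part was the larger for 9 of 10 genes, the exception being Top2a, with a share part of -1.49 and a level part of -1.81. For Cdc20 the parts had opposite signs, -2.15 for the share and 0.69 for the level, and Ccnb1, Plk1 and Cdk1 also had level parts above 0, at 0.37, 0.32 and 0.04. From E13.5 to adult mTEC the medians were -2.47 observed, -1.38 for the share and -0.95 for the level, with all 10 level parts below 0. From E13.5 to E15.5 the level part was above 0 for all 10 genes (median 0.55) while the share part was below 0 for all (median -0.77). Within data set 2 the order was another: from E17.5 to adult cTEC 2 the median share part was -0.38 and the median level part -0.57, and the share part was the larger for 3 of 10 genes. Within data set 1, from NB to adult cTEC 1, they were -1.20 and -0.50, with the share part larger for 9 of 10. The size of both parts depends on the cut. The share and level parts were -1.03 and -0.85 with at least 5 reference genes, -1.79 and -0.92 with at least 2, and -2.09 and -1.04 with the G2M list. They were -1.15 and -0.80 with thinning to 2000 UMIs, -1.82 and -0.29 with thinning to 5000 and -2.21 and -0.38 without thinning. The median share part was the larger in each of these, by a gap that was small with at least 5 reference genes.

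In reference-negative cells the level of each mitotic gene was highest at E13.5, and its later course differed between genes. At E13.5 these cells held 126 CPM of Top2a, 92.3 of Birc5 and 62.2 of Cdk1, and in NB these were 16.4, 6.36 and 12.03 CPM. From E15.5 to E17.5, Ccnb1 in such cells went from 5.54 to 9.60 CPM and Plk1 from 2.04 to 4.14. Ube2c went from 16.8 to 20.8 CPM and Cdc20 from 13.3 to 14.0, while the other mitotic genes were not higher at E17.5. In adult cTEC the same cells held 2.25 and 6.77 CPM of Cdk1, and in adult mTEC 36.9 and 39.6 CPM. Of Cdk1 UMIs 90.4% lay in reference-positive cells at E13.5 and 80 and 80.3% in adult cTEC, but 51.6 and 47.1% in adult mTEC. Plk1 was the gene most confined to reference-positive cells in 6 of the 8 libraries, with 96.8% of its UMIs there at E13.5 and 79.3 and 63.4% in adult mTEC.

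Mki67 behaved apart from the others in adult cTEC 1. It had 77 UMIs there, 27.6% of the 279 UMIs of all 10 genes, against 4.81 to 8.24% in the other libraries. Of its UMIs in cells of at least 3000 UMIs, 22.2% lay in reference-positive cells, where the other 9 genes had 44.1 to 100%. In reference-negative cells of this library it was detected in 8.38% of cells at 27.5 CPM, against 10.0 CPM in adult cTEC 2 and 16.1 CPM in NB. The library was the shallowest of the 8, and the part of depth, of background RNA or of the preparation in this value was not tested.

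Between adult lineages, 4 mitotic genes were lower in cTEC than in mTEC over all cells, and none differed past the threshold within reference-positive cells. By edgeR's quasi-likelihood test over 15626 genes, with a term for the data set, 4 of 10 were lower in adult cTEC and 0 higher, where 20.8% of all tested genes were lower and 10.9% higher. Cdk1 differed by -1.90 (SE 0.436, adjusted p = 0.000709), Ccna2 by -1.78 (SE 0.498, adjusted p = 0.00501), Birc5 by -1.13 (SE 0.433, adjusted p = 0.0419) and Top2a by -1.09 (SE 0.392, adjusted p = 0.0291). Aurkb at -1.30, Plk1 at -1.01, Ube2c at -0.999, Ccnb1 at -0.32, Cdc20 at -0.29 and Mki67 at 0.50 did not pass (edgeR adjusted p from 0.0549 to 0.645). The count moved with the settings. It was 0 without a term for the data set, 1 by DESeq2, 2 with all clusters kept, and 7 both in all deposited cells, which include the cells with over 5000 genes, and without cells carrying markers of another type. Of other genes of division, 16 of 43 S phase genes and 4 of 11 entry switches were lower in adult cTEC. So were 3 of 12 passenger and checkpoint genes, 2 of 24 mitotic reference genes and 1 of 16 anaphase-promoting complex genes. Of 47 G2 and M phase genes other than the 10, 7 were lower and 1 was higher, G2e3 at 2.43. Of 17 transcriptional regulators of mitotic genes 3 were lower, with Mybl2 at -3.76 and E2f2 at -3.51, and 1 was higher. Cdc25c differed by -3.82 and Ttk, a checkpoint kinase, by -2.38. These counts stand beside 20.8% of all tested genes lower and 10.9% higher. Of the 8 myeloid markers 3 were lower in adult cTEC too, and their part in these differences was not tested. Leaving out a library, which was fitted without the data set term, gave 0 without adult cTEC 1 or without adult mTEC 2, 1 without adult mTEC 1 and 4 without adult cTEC 2.

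In reference-positive cells 9 of 10 mitotic genes had a positive difference, adult cTEC minus adult mTEC, with a median of 0.49 against -0.18 over all genes tested, and 0 passed the threshold, where 5.18% of 8480 tested genes were higher and 5.72% lower. The largest were Cdc20 at 1.14 (interval 0.13 to 2.15, edgeR adjusted p = 0.144), Ccnb1 at 1.04 (0.01 to 2.07, adjusted p = 0.220) and Mki67 at 1.003 (-0.02 to 2.02, adjusted p = 0.238). Cdk1, the gene with the largest difference over all cells, was at 0.02 (-0.99 to 1.03). Without adult cTEC 1, and without the data set term, 2 of 10 passed as higher in cTEC. The intervals span about a log2 unit to each side, so a miss of the threshold does not show equal levels. DESeq2 also called 0 of 10, and 2 of 10 had an unadjusted p under 0.05 by edgeR. Cells of adult mTEC with at least 3 markers of another type, mostly myeloid, numbered 6 of 123 and 58 of 459 reference-positive cells, and without such cells in all libraries the median difference was 0.28 with 0 genes past the threshold. The 6 cells held 79 UMIs of Epcam among 125448 UMIs and the 58 cells 770 among 1139209. Whether they were of another cell type was not tested.

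The mix of the 10 genes in reference-positive cells was compared by the share of each gene among their summed UMIs. Cdc20 made up 9.33, 12.2, 12.3 and 19.3% through NB, 20.8% in adult cTEC 2 (29 of 145 UMIs in adult cTEC 1) and 14.2 and 12.7% in adult mTEC. Top2a made up 18.0, 15.7, 16.7 and 14.0% through NB, 10.3 and 9.48% in adult cTEC and 11.4 and 13.8% in adult mTEC. Cdk1 made up 9.27, 10.8, 12.5 and 13.47% through NB, 11.03 and 10.5% in adult cTEC and 17.1 and 14.1% in adult mTEC. No test was made on these shares.

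Reference-positive and reference-negative cells also differed in epithelial genes of their library. Epcam, the adhesion molecule used in the sort, was higher in reference-positive cells in all 8 libraries, by 0.24, 1.31, 1.34 and 1.08 from E13.5 to NB, 0.76 and 1.03 in adult cTEC and 0.27 and 0.30 in adult mTEC, on log2(CPM + 10). The cortical genes Psmb11, a thymoproteasome subunit, and Prss16, a protease, were lower in reference-positive cells of all 6 cortical libraries. Psmb11 differed by -0.74, -0.94, -0.97 and -1.01 through NB and by -3.95 and -1.54 in adult cTEC. Prss16 differed by -0.62, -0.84, -0.81 and -0.92 through NB and by -3.85 and -1.65 in adult cTEC. The chemokine Ccl25 was lower in all 8 libraries, by -0.82 at E15.5 to -4.42 in adult cTEC 1, and keratin Krt8 and the class II gene H2-Aa were also lower in all 8. In adult mTEC, Aire, the regulator of self-antigen expression, was lower by -0.47 and -0.26. The chemokine Ccl21a differed more there, by -2.10 and -0.89, and keratin Krt14 by -1.28 and -0.35, whereas Prss16 was higher by 0.37 and 0.23. These are differences between cells of 1 library and carry no test. The adult cTEC 1 values rest on the 6 reference-positive cells described above, 1 of them with myeloid markers and no Epcam. Some markers of other cell types were higher in the reference-positive cells of a library than in all its cells. In adult cTEC 1 the myeloid markers summed to 6702 against 327 CPM, the mesenchymal markers to 1134 against 510 and the thymocyte markers to 199 against 47.0. In adult cTEC 2 the mesenchymal markers summed to 519 against 318 CPM and the thymocyte markers to 184 against 116, whereas the myeloid markers summed to 3.35 against 33.2. Endothelial markers were lower, at 39.8 against 93.9 CPM in adult cTEC 1 and 0 against 30.9 in adult cTEC 2. In E17.5 cTEC the parathyroid markers summed to 451 against 91.4 CPM, the thymocyte markers to 55.1 against 20.3 and the erythroid markers to 52.1 against 352, and in NB cTEC the mesenchymal markers summed to 69.4 against 35.3. Their part in the differences of the cortical genes was not tested.

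Outside the list, the genes most like it in level were sought among 4007 genes with a mean log2(CPM + 1) above 5, by the correlation over the 8 libraries of log2(CPM + 10) with the mean of the 10. The 10 closest were Tpx2 (r = 0.996), Knstrn (0.994), Cdca3 (0.993), Rnaseh2c (0.993), H2afx (0.992), Cdca8 (0.991), Cnot1 (0.989), Spc24 (0.988), Bub3 (0.982) and Lsm2 (0.980). Tpx2, which activates Aurora A on the spindle, measured 186, 107, 38.1 and 41.5 CPM from E13.5 to NB, 11.6 and 22.8 in adult cTEC and 25.03 and 31.0 in adult mTEC. The points are 8 libraries that differ mainly by E13.5 and E15.5, and the values are a likeness of levels with no test. Among the 7 mitotic genes that passed the same level filter, the correlation with the mean was lowest for Mki67, at 0.883, and 0.994 for Top2a, Ube2c and Birc5.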

How the data were processed

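Single-cell RNA-seq counts of 8 libraries were analysed. Per the labels and methods, the authors made the deposited UMI counts per gene and cell barcode with Cell Ranger 2.0.1 (the header of data set 2 names 3.0.1), with STAR 2.5.1b and build mm10. Cells with over 5% mitochondrial UMIs or over 5000 genes were left out, as in the study, and clusters led by thymocyte or parathyroid markers were removed after Leiden clustering (leidenalg 0.10.2, scanpy 1.11.5). Each data set was clustered by itself, and the removed clusters lay in data set 1. No cluster of data set 2 met the rule, although 28 cells (5.23%) of adult cTEC 2 carried at least 3 thymocyte markers. Clusters led by haemoglobin genes or by Hhex and Nkx2-1 were kept. Doublets were not called. Depth is given above. For shares, each cell was thinned to 3000 UMIs at random and shallower cells were left out. Intervals are exact (Poisson or binomial, 95%) and cover counting error only. Summed counts per library were tested with edgeR 4.0.16 (quasi-likelihood, TMM, a term for the data set, Benjamini-Hochberg threshold 0.05) in R 4.3.3, and DESeq2 1.42.0 was an alternative. The fits were tested on simulated data. The stage fit took 6 cortical libraries and the lineage fit the 4 adult libraries. The study's other libraries were not analysed here. Named genes were the 10 mitotic genes, the 2 largest calls of each list and the 10 genes closest in level. Genes, lists and the cut of 3 reference genes were chosen with earlier results of these data known. Ccna2, Cdc20 and Ube2c overlap other genes on the opposite strand and Ccnb1 has a pseudogene, which could take some of their reads.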

Additional observations from a re-analysis of the deposited data

Results flagged for a closer look

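For 3 mitotic genes the difference between adult cTEC and adult mTEC, on log2(CPM + 10), had opposite signs in the data sets, with 1 library per lineage in each, and the difference between data sets was not tested. Mki67 was higher in cTEC by 0.89 in data set 1 and differed by -0.09 in data set 2. Ccnb1 differed by -0.64 in data set 1 and by 0.32 in data set 2, and Cdc20 by -0.58 and 0.24.

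Cells over the limit of 5000 detected genes, which enter the alternative over all deposited cells and no other comparison, held more reference-positive cells than the cells kept. After thinning, the share was 36.0% of 100 such cells in E17.5 cTEC, 32.4% of 34 in adult mTEC 1 and 55.6% of 338 in adult mTEC 2. With them included, the share would be 10.2% in E17.5 cTEC, 8.32% in adult mTEC 1 and 11.3% in adult mTEC 2. Whether these barcodes hold doublets was not tested.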

How the results depend on the processing

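The 7 mitotic genes that fell with stage in all cells became 0 to 7 when 1 library was left out. The count of 4 lower in adult cTEC became 0 without the data set term, 1 by DESeq2, 2 with all clusters kept, 7 in all deposited cells and 7 without cells carrying 3 or more markers of another type, and 0 to 4 with 1 library left out. The count of 0 higher in reference-positive adult cTEC became 0 to 2 with 1 library left out. The median share part from E13.5 to adult cTEC, -1.59, moved to -1.03 with at least 5 reference genes, -1.15 with thinning to 2000 UMIs, -2.09 with the G2M list and -2.21 without thinning. Of the counts and medians over settings, 97 kept their side and size, 9 were weaker, 3 stronger and 4 moved. Of the values of single genes 517 kept theirs, 43 were weaker, 18 stronger and 32 turned sign.

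Signs that turned belonged to genes that had not passed the threshold. For the stage slope in reference-positive cells, Cdk1 was 0.091, Ccnb1 0.15 and Birc5 0.039 with at least 5 reference genes, and Ccnb1 was 0.017 without the data set term and 0.01 by DESeq2. With 1 library left out, Cdk1 ran from -0.23 to 0.074 and Ccnb1 from -0.086 to 0.12. For the lineage difference in all cells, Ccnb1 was 0.59 and Cdc20 0.42 without adult cTEC 1, and 0.14 and 0.018 without adult mTEC 2. In reference-positive cells Top2a was -0.061 with no filter, -0.037 with at least 2 reference genes, -0.12 with the G2M list and -0.038 without cells carrying other markers. There Cdk1 was -0.034 with DESeq2 size factors, -0.22 with no filter, -0.035 by DESeq2, -0.23 with at least 2 reference genes, -0.30 with the G2M list, -0.21 in all deposited cells, -0.075 with all clusters kept and -0.15 without cells carrying other markers. Aurkb was -0.001 with the G2M list. Without adult cTEC 2, Top2a was -0.26, Cdk1 -0.45, Aurkb -0.39 and Ube2c -0.18. Top2a was -0.04 without adult mTEC 1, and Ccna2 was 0.17 without adult cTEC 1. The cause was not tested.

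Animals could not be paired, because the labels number no replicates across groups. The data set term served as the block. In the lineage fit each data set held 1 adult library of each lineage, so this term compared the lineages within data sets. Lineage fits with 1 library left out have no residual degrees of freedom with that term and were made without it, so the lone library is assumed to vary like the other group. With at least 5 reference genes the lineage fit was not run, since adult cTEC 1 held 4 such cells. Adult cTEC 1, with 6 reference-positive cells, limits each comparison that uses it. Removing cells with other markers, the stricter tuft call and the lineage fits with 1 library left out were chosen after seeing the data.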
